A study of Mus musculus with 8 samples.

Results

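Tmprss13 is a type II transmembrane serine protease, an enzyme anchored in the surface membrane with its catalytic domain outside the cell. It was described here with 6 other genes of the same epithelial protease system: the membrane proteases Tmprss2, Tmprss4 and St14, the lipid-anchored protease Prss8, and the Kunitz-type inhibitors Spint1 and Spint2. All non-control probes whose gene name in the scanner files is one of these 7 were taken, which gave 10 probes of 39429, with 2 probes each for Prss8, Spint1 and Spint2. Tmprss13 was chosen by its log2 signals on the fasted and fed arrays, so that difference is given as a description with no test. The other 6 were taken as members of its enzyme family and as the inhibitors and partners of that family.

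The arrays were made from lower crypts of the mouse jejunum, cut from fixed sections by laser capture, with 1 single-colour array per mouse. The fasted group held 4 mice, 2 labelled male and 2 female, kept without food for 24 h before the injection. The fed group held 4 mice, again 2 of each labelled sex, with food throughout. All 8 mice, in both groups, were 4 to 6 weeks old, carried the Lgr5EGFP-IRES-CreERT2/+ reporter allele, were injected through the tail vein with etoposide, which poisons topoisomerase II, at 80 mg/kg, had moistened food afterwards and gave tissue 3 h later. Fasting cannot be told apart from the feeding that followed it, and etoposide was given to every mouse measured. In RNA from a captured area, fewer cells of a type and less RNA per cell cannot be told apart.

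The share of probes that the scanner software set well above background was 61.1% ± 5.36 for fasted and 58.5% ± 4.82 for fed arrays (SD, n = 4 each), and 53.2% to 65.7% on single arrays. The captures carried epithelial RNA: all 13 epithelial markers of the fixed list were measured, as were Olfm4 of the crypt base and Lyz1 of Paneth cells. Lgr5, the stem cell gene that carries the reporter, stayed at background on all 8 arrays. Fasted replicate 3 stood apart: its correlation across probes was 0.950 with the array most like it, where each other array reached at least 0.964 with its own nearest. The array labelled female as fed replicate 4 went against its label, with Xist not well above background and the Y-linked Eif2s3y at -1.39, where the other arrays labelled female lay between -5.61 and -5.07.

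Membrane serine proteases act at the surface of epithelial cells as a cascade. St14, known as matriptase, and Prss8, known as prostasin, can activate each other and act on further surface proteins, among them the epithelial sodium channel and the protease-activated receptor F2rl1. Spint1 and Spint2, also called HAI-1 and HAI-2, are transmembrane inhibitors that hold these proteases in check. In mice, loss of St14 breaks the barrier of the intestinal epithelium, and loss of Spint2 harms the intestine through unchecked matriptase. Tmprss13 is known in mice for a role in forming the skin barrier.

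Each member probe is an oligonucleotide of 60 bases. For Tmprss13 there was a single probe, on chromosome 9 from 45155605 to 45155664 on the plus strand of mm9, the build named in the file headers. The 3 other probes shown are the brighter Prss8 probe, on chromosome 7 from 135069232 to 135069291, and both Spint2 probes, on chromosome 7 from 30041332 to 30041381 and from 30066532 to 30066591, all on the minus strand. The first of these Spint2 spans covers 50 bases, as deposited. Each line gives 30 bases of the probe, 5′ to 3′, as deposited, and capitals mark the hexamer of the common polyadenylation signal where the probe holds it. They are shown because the Tmprss13 value rests on 1 oligo near such a hexamer, whereas Spint2 was read at sites 25.2 kb apart.
Tmprss13: atgagcttccatAATAAAatcgtgtggcac
Prss8, brighter probe: attttactttatgAATAAAtgacacaaaac
Spint2, brighter probe: aaccgggagtacaacttgtgctgtttaaaa
Spint2, dimmer probe: ttggtagcttcgctgctcctctccggggcc

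The letters AATAAA, searched on the probe strand alone, occur in 12.6% of all probes. Among the 10 member probes they occur in the Tmprss13 probe and the brighter Prss8 probe. Exon and UTR annotation in mm9 was not used here.

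Tmprss13 was dim in fasted crypts and brighter in fed crypts. The processed signal is the scanner software's background-subtracted signal on a linear scale. It is not mean brightness less local background alone. On fasted replicate 3, for example, the Tmprss4 probe had a processed signal of 9647 and a mean brightness of 7780. For Tmprss13 the processed signal was 223 ± 37.4, 337 ± 42.0, 36.6 ± 36.4 and 208 ± 32.1 on fasted replicates 1 to 4, where the error is the scanner software's own for the spot. On fed replicates 1 to 4 it was 522 ± 51.6, 820 ± 71.4, 628 ± 58.4 and 442 ± 43.4. The lowest fed signal thus lay above the highest fasted one, and fasted replicate 3 was the 1 array on which the probe was not well above background. Before subtraction the mean brightness of the spot was 684 to 786 on fasted and 1024 to 1319 on fed arrays. The processed signal comes from these same spots, so this separation is no separate support for the difference.

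**Figure D1:**
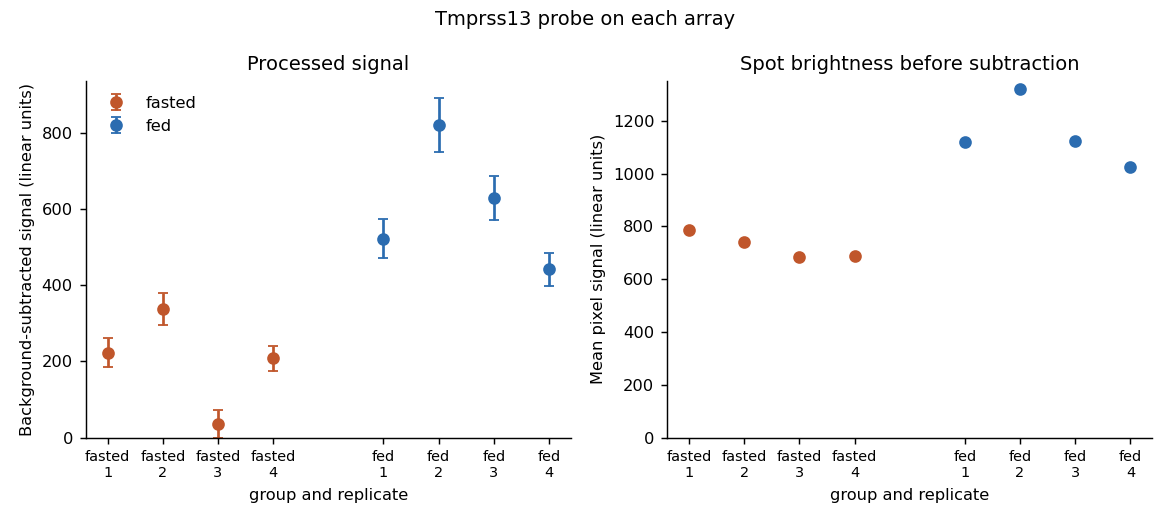
Tmprss13 probe on each array, fasted replicates on the left and fed replicates on the right. The left panel plots the processed signal in linear units with the scanner software's error for the spot, and the right panel the mean pixel signal before subtraction; the fasted points, 36.6 to 337 processed, all lie under the fed points, 442 to 820.

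Levels below are log2 processed signals minus the array's own 75th percentile over probes, so 0 is the brightness of that percentile, and levels of different probes are not set against each other. On this scale Tmprss13 was at -2.97, -2.50, -5.17 and -2.98 on fasted replicates 1 to 4. It was at -1.10, -0.56, -1.37 and -1.91 on fed replicates 1 to 4. The groups did not overlap: the gap between the highest fasted and the lowest fed array was 0.59, less than the fed group's own range of 1.35. Fasted replicate 3 lay 2.19 below the next array and was not well above background, at a signal about as large as its error. Before subtraction its spot was at 684, close to the 687 of fasted replicate 4. The local backgrounds of these 2 spots were 70.0 and 72.5, and their processed signals 36.6 and 208. The distance of fasted replicate 3 thus appeared in the processed signal and not in the mean brightness. Which step of the software's processing made it was not tested.

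The fasted mean was -3.40 ± 1.20 and the fed mean -1.23 ± 0.56 (SD, n = 4 each), a log2 difference of -2.17 (SE 0.50), or 4.49-fold lower in fasted crypts. Without fasted replicate 3 the fasted mean was -2.81 ± 0.27 (SD, n = 3) and the fitted difference -1.68, and without fed replicate 4 it was -2.22. Only 5 of 19499 genes had a lower difference, a rank that follows from how the gene was picked. Groups that do not overlap were found for 4.98% of the 19360 genes with a value on every array, with all fasted arrays below all fed ones in 1.98% and above them in 3.00%.

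Of the slides, 3 carried 1 fasted and 1 fed array. Within them Tmprss13 differed by -1.87 (fasted 1 against fed 1), -1.13 (fasted 2 against fed 3) and -1.07 (fasted 4 against fed 4). Because the groups did not overlap, every pair of a fasted and a fed array had to differ in this direction. The sizes on these 3 slides were below the difference over 8 arrays. Fasted replicate 3 and fed replicate 2, the lowest and the highest Tmprss13 level, were alone on their slides. With slide as a block the difference was -1.35 (SE 0.31). Here and below, that fit has no term for labelled sex, and its feeding difference comes from these 3 slides. Fasted 2 is labelled male and fed 3 female, and fed 4 went against its label.

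The size of the difference changed with the signal and background correction used. With normexp on mean brightness and local background, and an offset of 50, the difference was -1.09 (SE 0.20). In the authors' deposited matrix, whose centring stays unknown, the same fit gave -2.99 (SE 1.05). Over probes above each array's median signal, that matrix follows the log2 processed signal with slopes of 0.957 to 1.04. No slope was fitted for dimmer probes. All 20 alternatives that gave a value kept fasted below fed, between -2.99 and -1.09, the direction for which the gene was picked.

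**Figure D2:**
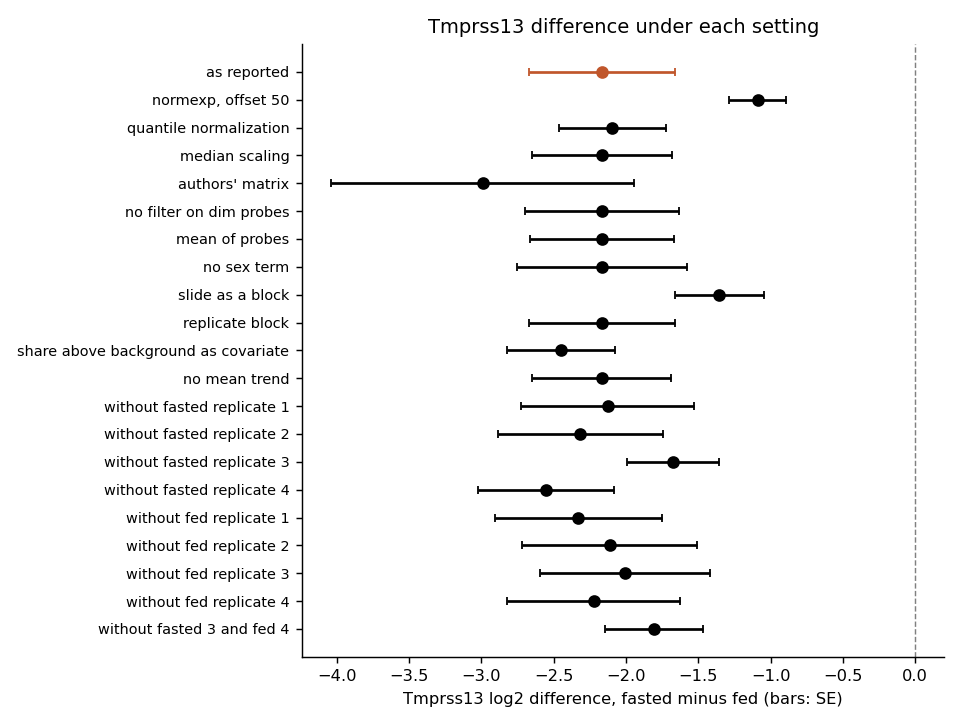
Tmprss13 log2 difference, fasted minus fed, as reported and under each alternative that gave a value. Points are fitted differences and bars their SE; all lie below 0, from -2.99 in the authors' matrix to -1.09 with normexp.

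For the other 6 members the differences lay between -0.29 and 0.12. In limma's test over all genes 0 of these 6 passed the Benjamini-Hochberg threshold of 0.05, with adjusted p between 0.808 and 0.963. The background was 0% (0 of 19499 genes), and 5.96% of genes had an unadjusted p under 0.05, against 0 of the 6 members. Fasted and fed arrays of 1 slide deviated together, with correlations of 0.37, 0.54 and 0.61 across genes. Pairs on different slides ran from -0.51 to 0.50, so positive correlations were not particular to shared slides. With slide as a block, 2 of the 6, Tmprss2 at -0.54 (unadjusted p = 0.0247) and Spint2 at -0.44 (unadjusted p = 0.0398), had an unadjusted p under 0.05 in limma's test, where 13.0% of 19462 genes had one, and their adjusted p was 0.343 and 0.364. With 4 arrays a group the intervals stay wide, so these values do not show that the 6 genes were alike in the 2 feeding states.

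Tmprss2, a membrane protease known in humans for priming viral surface proteins, had the lowest adjusted p of the 6. It was at -0.70, -0.77, 0.38 and -0.52 on fasted replicates 1 to 4, and at -0.0050, -0.07, -0.27 and -0.08 on fed replicates 1 to 4. Fasted replicates 1, 2 and 4 lay below all fed arrays and fasted replicate 3 above them all. The difference was -0.29 (95% interval -0.95 to 0.36, limma adjusted p = 0.808). Without fasted replicate 3 it was -0.55, with an adjusted p of 0.537 in limma's test, and within the shared slides it was -0.69, -0.49 and -0.44.

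Tmprss4, also named channel-activating protease 2 because it can activate the epithelial sodium channel, was at 2.12, 0.96, 2.88 and 1.89 on fasted replicates 1 to 4. On fed replicates 1 to 4 it was at 2.12, 2.26, 1.43 and 1.55. The fasted arrays held both the highest and the lowest level, and their SD was 0.79 against 0.41 in the fed arrays. The difference of 0.12 had a 95% interval of -0.82 to 1.06 and a limma adjusted p of 0.946. It turned to -0.23 without fasted replicate 3, to -0.06 without fed replicate 3 and to -0.0086 without fed replicate 4, and was 0.51 without fasted replicate 2.

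St14, the matriptase gene, was at 0.68, 0.77, 1.45 and 0.53 on fasted replicates 1 to 4 and at 0.51, 1.26, 1.17 and 0.73 on fed replicates 1 to 4. The groups overlapped over nearly their whole range. The difference was -0.06 (95% interval -0.70 to 0.58, limma adjusted p = 0.963). It was -0.26 without fasted replicate 3, and it turned to 0.11 without fasted replicate 4, to 0.11 without fed replicate 2 and to 0.01 without fed replicate 3.

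Prss8, the prostasin gene, had the smallest SD within groups of the 5 proteases, 0.20. Its brighter probe was at 2.32, 1.89, 2.20 and 2.03 on fasted replicates 1 to 4 and at 2.19, 2.40, 2.11 and 1.90 on fed replicates 1 to 4, a difference of -0.04 (95% interval -0.47 to 0.39, limma adjusted p = 0.958). The dimmer probe, 556 bases away in mm9, differed by 0.05 (SE 0.31) and was highest on fasted replicate 3, at 1.11. Leaving out single arrays gave the brighter probe -0.12 (without fed replicate 4) to 0.07 (without fasted replicate 2), and 0.03 without fed replicate 2.

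Spint1, the HAI-1 inhibitor, had probes that overlap by 3 bases and did not give the same sign. The brighter one was at 1.82, 1.91, 1.52 and 2.24 on fasted replicates 1 to 4, against 1.99, 1.95, 1.94 and 2.01 on fed replicates 1 to 4, a difference of -0.10 (95% interval -0.56 to 0.36, limma adjusted p = 0.900). The dimmer one was at 1.43, 1.23, 1.44 and 1.18 on fasted and at 1.19, 1.03, 0.91 and 0.68 on fed replicates 1 to 4, a difference of 0.37 (SE 0.19). The brighter probe had an SD of 0.30 on fasted and 0.03 on fed arrays, and on the dimmer probe fasted replicate 4, at 1.18, lay just under fed replicate 1, at 1.19. The mean of both probes gave 0.13, and the brighter one gave 0.04 without fasted replicate 3 and -0.25 without fasted replicate 4.

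Spint2, the HAI-2 inhibitor, gave like differences at both probes. The brighter probe was at 3.81, 3.56, 4.44 and 3.52 on fasted replicates 1 to 4, against 4.58, 4.01, 3.91 and 3.70 on fed replicates 1 to 4. Its difference was -0.22 (95% interval -0.85 to 0.41, limma adjusted p = 0.84), and the dimmer probe differed by -0.24 (SE 0.25). The brighter probe's difference depended on single arrays: it was -0.48 without fasted replicate 3 (limma unadjusted p = 0.0362, adjusted p = 0.552), -0.34 without fed replicate 4, -0.11 without fasted replicate 4, -0.09 without fasted replicate 2 and -0.03 without fed replicate 1. On both probes fed replicate 1 was the highest array and fasted replicate 3 the second. Within the shared slides the brighter probe differed by -0.77, -0.35 and -0.18.

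**Figure D3:**
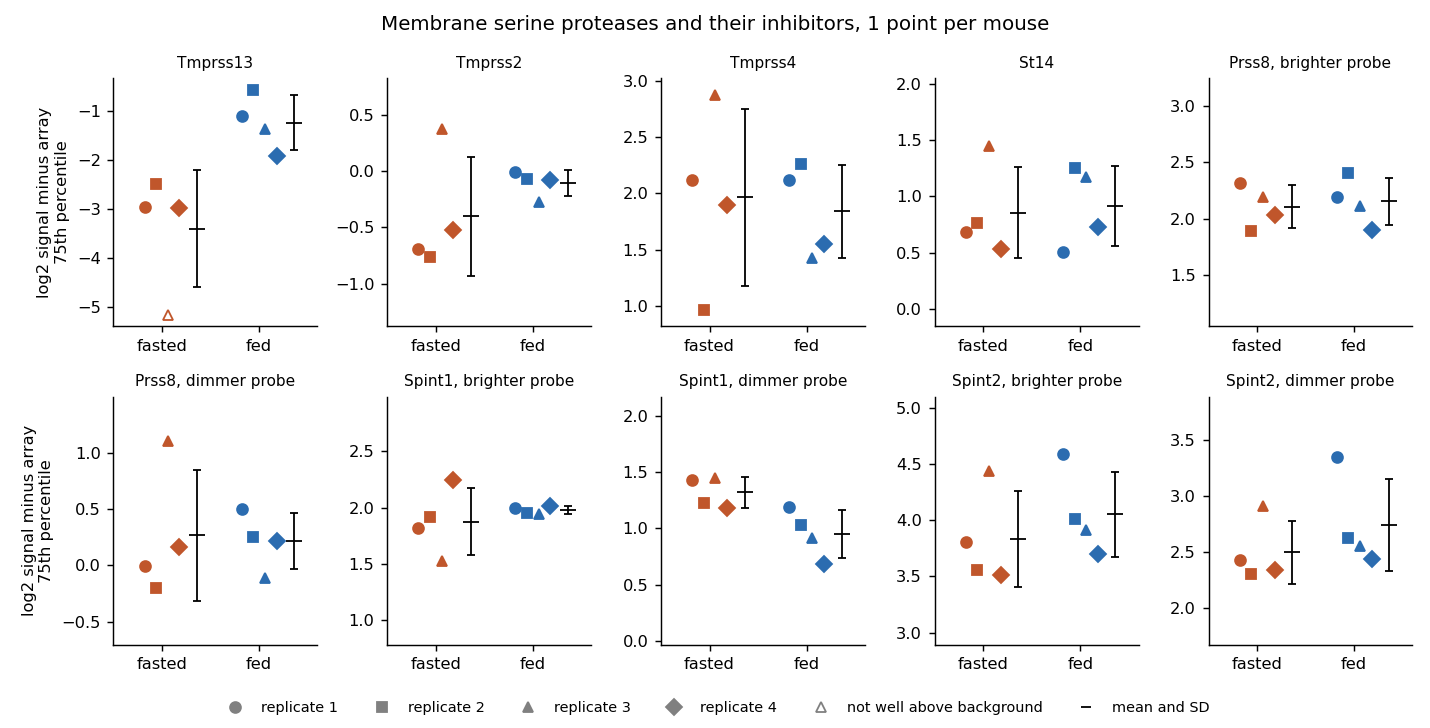
Levels of the 10 member probes on each array, as log2 signal minus the array's 75th percentile, with fasted mice left and fed mice right. Symbols give the replicate, open symbols a probe not well above background, and bars mean and SD (n = 4); for Tmprss13 alone the groups are apart, and the open triangle is fasted replicate 3 at -5.17.

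**Figure D4:**
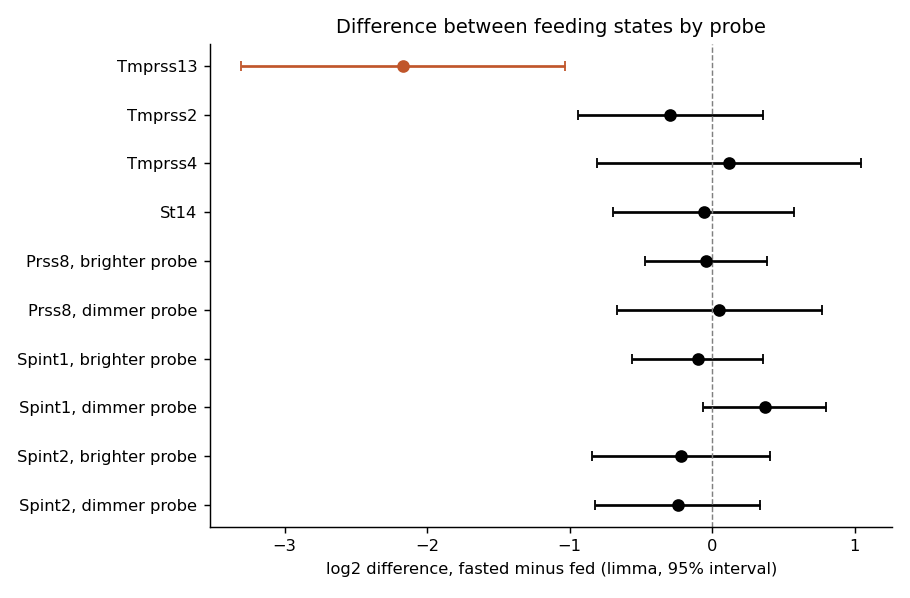
Log2 differences, fasted minus fed, of the 10 member probes with 95% intervals from a limma fit over all probes. The interval of Tmprss13 runs from -3.31 to -1.03, a description since the gene was picked for it, and the intervals of the other 9 probes include 0.

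Fasted replicate 3 thus held the highest level of Tmprss2, Tmprss4, St14, the dimmer Prss8 probe and the dimmer Spint1 probe, and the lowest of Tmprss13 and the brighter Spint1 probe. That array had 53.6% of probes well above background, and fed replicates 1 and 2 had 53.2% and 55.6%. With this share as a covariate the Tmprss13 difference was -2.45. In that fit 5445 of 19499 genes had an unadjusted p under 0.05 in limma's test, against 1162 without the covariate. The part of this share in the Tmprss13 levels was not tested.

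Labelled sex is a contrast that did not enter the choice of members. Tmprss13 averaged -1.78 on arrays labelled male and -2.85 on arrays labelled female, a difference of 1.07 (SE 0.50, limma adjusted p = 1.00). Without fasted replicate 3 it was 0.58, and without fed replicate 4, the array at odds with its label, 1.02. For the other 6 members the difference lay between -0.26 and 0.14. In limma's test 0 of 7 members passed, the background was 0% (0 of 19499 genes), and 2.21% of genes had an unadjusted p under 0.05, against 0 of the 7.

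Whether the feeding difference depended on labelled sex was asked with an interaction term. Tmprss4 had a difference of -0.65 between fasted and fed mice labelled male and of 0.90 between those labelled female, an interaction of -1.55 (SE 0.65, limma adjusted p = 0.758). It was the 1 member of 7 with an unadjusted p under 0.05 (0.0479), where 3.17% of genes had one, and 0 members and 0% of 19494 genes passed after adjustment. Without fasted replicate 3 it was -1.06, and without fed replicate 4 -1.61. Tmprss13 had a difference of -1.90 in mice labelled male and of -2.43 in those labelled female (interaction 0.53, SE 1.06, limma adjusted p = 0.862).

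Of 16 further genes of the type II family 5 passed the filter on dim probes, 2 with a positive and 3 with a negative difference (median -0.33, where the median of all genes was -0.06 and 44.6% were positive), and 0 passed. Tmprss3, which can activate the sodium channel, differed by -0.33 (SE 0.15), Hpn, or hepsin, by -0.39 (SE 0.35), Tmprss6, a regulator of hepcidin in liver, by -0.67 (SE 0.76) and Tmprss11b by 0.57 (SE 0.63). Without fasted replicate 3 the list's median turned to 0.13, with 3 of 5 positive, and Tmprss6 to 0.13, while Hpn was at -0.64 and Tmprss11b at 1.07. Tmprss15, the enteropeptidase that activates pancreatic trypsinogen, was at background on all 8 arrays.

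Among 25 measured trypsin-like serine proteases outside that family, 12 differences were positive and 13 negative (median -0.15), and 0 passed. Plat, the tissue plasminogen activator, differed by -0.89 (SE 0.37). Klk10, a kallikrein-related gene, differed by -0.46 (SE 0.25). Among the genes of this list with a value on every array, Klk10 was the 1 with all fasted arrays below all fed ones. Over all genes with such values 1.98% had this. Klk8 lacked a value on some array and was not scored. Gzma, a granzyme of cytotoxic lymphocytes, differed by 1.33 (SE 0.80) and Mcpt1, a mucosal mast cell protease, by 2.22 (SE 1.42), the second being well above background on 3 fasted and 2 fed arrays and at 1.46 without fasted replicate 3.

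Serine protease inhibitors beyond Spint1 and Spint2 had 6 positive and 13 negative differences among 19 measured (median -0.22), and 0 passed. Spink1, an inhibitor of trypsin, differed by 0.82 (SE 0.24), and Serpinb1a, an inhibitor of neutrophil proteases, by 0.75 (SE 0.26). Serpinb1a was the 1 gene of the 19 with all fasted arrays above all fed ones, between 2.49 and 3.49 against 1.89 to 2.32. Over all genes 3.00% had this. Its highest level was on fasted replicate 3. Without that array Serpinb1a differed by 0.51 and Spink1 by 1.01. Serpinb8 and Spink4, which goblet cells express, differed by -0.32 and -0.36. Serpina5 was at background on all 8 arrays.

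The list of substrates and partners of these proteases had 6 positive and 10 negative differences among 16 measured (median -0.13), and 0 passed. Epcam, an adhesion protein that matriptase cleaves, differed by -0.05 (SE 0.22) and its partner Cldn7 by -0.21 (SE 0.19), and without fasted replicate 3 they differed by -0.23 (Epcam) and -0.32 (Cldn7). Scnn1a, the sodium channel subunit that was measured, differed by 0.16 (SE 0.44), or -0.04 without fasted replicate 3, while Scnn1b and Scnn1g were at background on all 8 arrays. F2rl1, the receptor that matriptase and prostasin can activate, differed by -0.21 (SE 0.28), or -0.44 without fasted replicate 3, and F2rl3 of the same family by 0.83 (SE 0.39). Met, the receptor of the growth factor Hgf, differed by -0.07 (SE 0.25), or -0.02 without fasted replicate 3, and Hgf was at background on all 8 arrays. Plaur, the urokinase receptor, differed by -1.48 (SE 0.94), or -2.27 without fasted replicate 3, and was well above background on 2 fasted and 3 fed arrays, and Muc1, a membrane mucin, differed by -0.74 (SE 0.38).

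**Figure D5:**
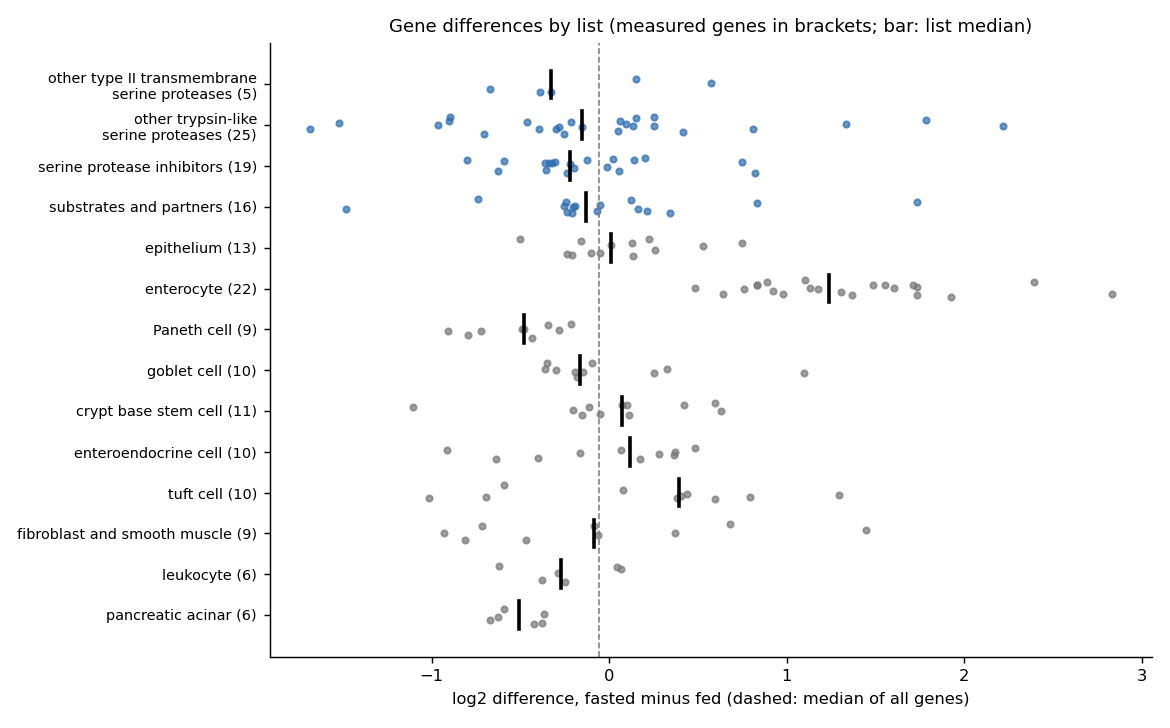
Log2 differences, fasted minus fed, of the measured genes on each list, with the list's median as a bar and the median of all genes, -0.06, as a dashed line. The 4 lists around the proteases, in blue, have medians from -0.33 to -0.13, and the enterocyte genes all lie above 0 with a median of 1.24.

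Cell type markers were read on the same arrays. Enterocyte markers had a positive difference in 22 of 22 measured genes (median 1.24), and their summed signal was 116 to 241 times the array's 75th percentile on fasted and 45.5 to 97.2 times on fed arrays. Paneth cell markers had a negative one in 9 of 9 (median -0.48), with sums of 404 to 517 on fasted and 529 to 748 on fed arrays. General epithelial markers had a median of 0.01, with sums of 256 to 325 on fasted and 286 to 319 on fed arrays. The pancreatic acinar markers had a negative one in 6 of 6 (median -0.51), with sums of 1.47 to 3.61 on fasted and 2.27 to 4.57 on fed arrays. Prss1, Cela2a and Amy2a5 were at background on all 8. The trypsinogen genes Prss1 and Prss2 were not among the 6, which therefore do not check trypsin transcripts. The medians were -0.17 for goblet, 0.07 for crypt base stem, 0.12 for enteroendocrine, 0.39 for tuft, -0.09 for fibroblast and smooth muscle, and -0.27 for leukocyte markers. Without fasted replicate 3 the median was -0.35 for stem, -0.24 for enteroendocrine, -0.07 for epithelial, 0.20 for tuft, -0.16 for fibroblast and smooth muscle, -0.15 for leukocyte and -0.11 for acinar markers, the last with 1 of 6 positive. With slide as a block it was -0.15 for epithelial, -0.17 for stem, -0.05 for enteroendocrine and -0.13 for tuft markers. None of the measured genes on these lists passed over all genes, and the part of any of these cell types in the Tmprss13 difference was not tested.

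The genes whose levels followed Tmprss13 most closely over the 8 arrays were Vmn2r48, Pif1, Svep1, Lama1 and Ugt2b35, with a Pearson r of 0.949 to 0.968. Over the 7 arrays without fasted replicate 3 their r was 0.883 to 0.937. These correlations carry the separation of the groups by which Tmprss13 was picked. On deviations from the group means, which leave it out, the closest were Cth, Pif1, Zkscan5, Tmem220 and Klhl13, with an r of 0.939 to 0.968, and 0.656 to 0.835 without fasted replicate 3. These are the highest values among all genes tested and are given as a description. On the same deviations the other 6 members had r between -0.86 (Tmprss2) and 0.64 (Spint1), and between -0.22 and 0.53 without fasted replicate 3.

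Tmprss13 and Tmprss4 lie close together on mouse chromosome 9, so the 4 coding genes on either side of Tmprss13 in RefSeq order on GRCm38.p6 were read as well. In that order they are Scn4b, Tmprss4, BC049352 and Il10ra on one side and Fxyd6, Fxyd2, Dscaml1 and Cep164 on the other. The 5 measured among them differed by -0.11 (Scn4b), 0.12 (Tmprss4), 0.34 (Fxyd6), 0.03 (Fxyd2) and 0.02 (Cep164). In each of these 5 the groups overlapped, where 4.98% of all genes had groups that did not. Fxyd2 was at -0.0085 and Cep164 at -0.02 without fasted replicate 3. Il10ra and Dscaml1 did not pass the filter on dim probes.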

How the data were processed

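The deposited scanner files hold spot intensities. The submitters' processing notes name Agilent Feature Extraction, version 11.5.1.1, as the tool. Its columns give a background-subtracted processed signal, the software's error for it, and mean and local background signals. The authors' deposited matrix holds log2 values whose ranks follow the processed signal (Spearman correlation of at least 0.999 per array), with medians of 7.73 to 8.33. Flags of 0 or 1 for signal above background are other columns deposited by the authors.

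Control spots and flagged outlier spots were left out and spots of a probe averaged. No probe was saturated, and no array pair was identical. Log2 processed signals minus each array's 75th percentile were fitted with limma 3.58.1 in R 4.3.3 (group and labelled sex, eBayes with a mean trend, Benjamini-Hochberg threshold 0.05), for probes whose signal exceeded background clearly on 4 or more of the 8 arrays, with the brightest probe per gene. Genes were named through RefSeq accessions (27655 probes), otherwise by the file. All 7 members passed this filter, Tmprss13 on 7 arrays. Array number limits precision. Named genes are the members, the 4 smallest p of each protease list, 10 fixed substrates, partners and family members, 5 nearest genes by each correlation, and fixed cell markers; some of these are not reported here, and the neighbours on chromosome 9 were added later. Members and lists were chosen with earlier results of these data known.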

Additional observations from a re-analysis of the deposited data

How the results depend on the processing

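The count of genes called between feeding states stayed at 0 in all 22 alternatives, the threshold of 0.1 included, with 455 to 5445 genes at an unadjusted p under 0.05. The Tmprss13 difference moved beyond 1 SD between replicates (0.93, both groups pooled) with normexp alone, to -1.09. It ran from -2.55 to -1.68 when single arrays were left out, and had no value where all 8 arrays had to be well above background. Fasted replicate 3 widens that SD: the fasted SD was 1.20 with this array and 0.27 without it. Against a smaller SD more of the alternatives could count as moved. No other member passed the threshold under any alternative, and several near 0 changed sign. Prss8 gave 0.014 with normexp, 0.0031 with the mean of probes, 0.0094 with slide as a block and 0.018 with the share above background as covariate. Spint1 gave 0.13 with the mean of probes, 0.0083 with slide as a block and 0.028 without fasted 3 and fed 4. Tmprss4 gave -0.042 with slide as a block and -0.28 without fasted 3 and fed 4, and St14 0.028 with the covariate. Leaving out single arrays gave -0.23 to 0.51 for Tmprss4, -0.26 to 0.11 for St14, -0.12 to 0.071 for Prss8 and -0.25 to 0.041 for Spint1. For labelled sex, Spint2 gave -0.043 with normexp and -0.013 in the authors' matrix, Spint1 0.0048 with median scaling and 0.077 with the mean of probes, Prss8 -0.033 with the mean of probes, and Tmprss2 0.013 and Tmprss4 0.21 without fasted 3 and fed 4. Single arrays left out gave -0.38 to 0.00012 for Tmprss2, -0.25 to 0.31 for Tmprss4, -0.34 to 0.036 for St14, -0.15 to 0.13 for Spint1 and -0.094 to 0.36 for Spint2, and 0 to 5 genes called, the 5 without fasted replicate 3. For the interaction, Tmprss13 gave -0.11 and Spint1 0.0088 with normexp, Spint1 0.12 with quantile normalization, and St14 0.11, Prss8 0.042 and Spint1 0.32 in the authors' matrix. Single arrays left out gave -0.56 to 1.63 for Tmprss13, -0.65 to 0.26 for St14 and -0.37 to 0.35 for Spint1, and 0 to 2218 genes called, the 2218 without fasted replicate 4 and 1 without fed replicate 2, fits that take a lone array to vary as the other arms do. The cause of these moves was not tested. Same-numbered fasted and fed arrays deviated together with correlations of 0.37, -0.47, -0.45 and 0.61, so the numbers do not pair the arrays. With the replicate block the Tmprss13 difference was -2.17, 0 genes were called and no member's call changed, and fasted replicates 2 and 3 correlated best with a fed array of another number. The Tmprss13 value rests on 1 probe that 1 fasted array did not read well above background.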
